A study of Mus musculus with 6 samples.

Results

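The genes described here encode enzymes of sphingomyelin and ceramide metabolism: Smpd1, Smpdl3a, Smpdl3b, Asah1, Sptlc1, Sptlc2, Degs1, Ugcg, Sphk1 and Sgpl1. They were chosen by gene symbol in the mRNA table, and all 10 were found, with 29 of its 50687 transcripts and 10 of its 21912 gene symbols. Expression was measured by RNA sequencing in 6 libraries of cultured mouse macrophages, 3 labelled control and 3 labelled M. The series concerns macrophages exposed to ox-LDL, an oxidised form of low-density lipoprotein that is used to make foam cells in culture. The labels name control but do not spell out M, so that M received ox-LDL is a reading of the series title, and the extraction protocol calls the cells of every library ox-LDL induced. The sources used here give no strain, genotype, age, macrophage origin, dose or time. They also do not say whether replicates were separate cultures, so a p-value here reflects variation among libraries that may be only technical.

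Ceramide is the hub of sphingolipid metabolism. It is made anew from serine and palmitoyl-CoA, a route that serine palmitoyltransferase opens and a desaturase closes, or it is released from membrane sphingomyelin by sphingomyelinases. Cells convert it to sphingomyelin or glucosylceramide, or split it to sphingosine, which sphingosine kinases phosphorylate to the signalling lipid sphingosine 1-phosphate. Macrophages take up sphingomyelin with lipoproteins and degrade it in lysosomes, and sphingomyelin is the membrane lipid that binds cholesterol most tightly.

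Values are FPKM, that is fragment counts divided by transcript length and sequencing depth, summed over the transcripts of a gene. Summed over all genes they came to 375467 to 390581 FPKM per library. The macrophage markers matched the label in 7 of 8 cases, with a mean of at least 1 FPKM (the marker below that was Mertk). Their sum was 5740 to 6163 FPKM in control and 7473 to 7761 FPKM in M. Most of it was Lyz2, with means of 4610 FPKM in control and 6069 FPKM in M. Itgam, Adgre1, Fcgr1, Lyz2 and Cd14 were called higher in M by limma, as were 21.2% of all tested genes. Cd68 and Csf1r were not called. None of 28 markers of other cell types averaged 1 FPKM. Those of T cells, mast cells, epithelium and mesothelium were listed at 0 in every library, and the highest single value was 1.57 FPKM, for Siglech of plasmacytoid dendritic cells, whose marker sum was 0.784 to 1.58 FPKM in control and 0.147 to 0.198 FPKM in M. The neutrophil sum was 0 to 0.191 FPKM in control and 0.541 to 0.870 FPKM in M. Most of it was S100a8, with means of 0.064 FPKM in control and 0.623 FPKM in M. S100a9 and Mpo were listed at 0 in every library, and Elane averaged 0 FPKM in control and 0.050 FPKM in M. The part of these marker differences in the results was not tested. Fewer cells of a type and less RNA per cell cannot be told apart in bulk RNA.

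Of the 10 genes, 9 averaged at least 1 FPKM and were tested. With limma, 4 were called higher in M (Degs1, Sgpl1, Sptlc2 and Asah1) and 1 lower (Smpd1), at an adjusted p under 0.05. Over the 10390 tested genes, 21.2% were called higher and 21.9% lower, 43.1% in either direction. The differences were small. The 9 genes had a median absolute log2 fold change of 0.11, against 0.16 over all tested genes. Only the changes of Degs1 and Sgpl1 also passed an adjusted p under 0.01, a threshold added after seeing the data that 13.8% of tested genes passed upward. The other 3 calls had adjusted p values of 0.0472 to 0.0478, just inside the threshold, so the counts depend on them. The groups did not overlap in 6 of the 9 genes, with M above control in 4 and below in 2, where 27.6% and 28.1% of tested genes did so, 55.7% in either direction.

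**Figure D1:**
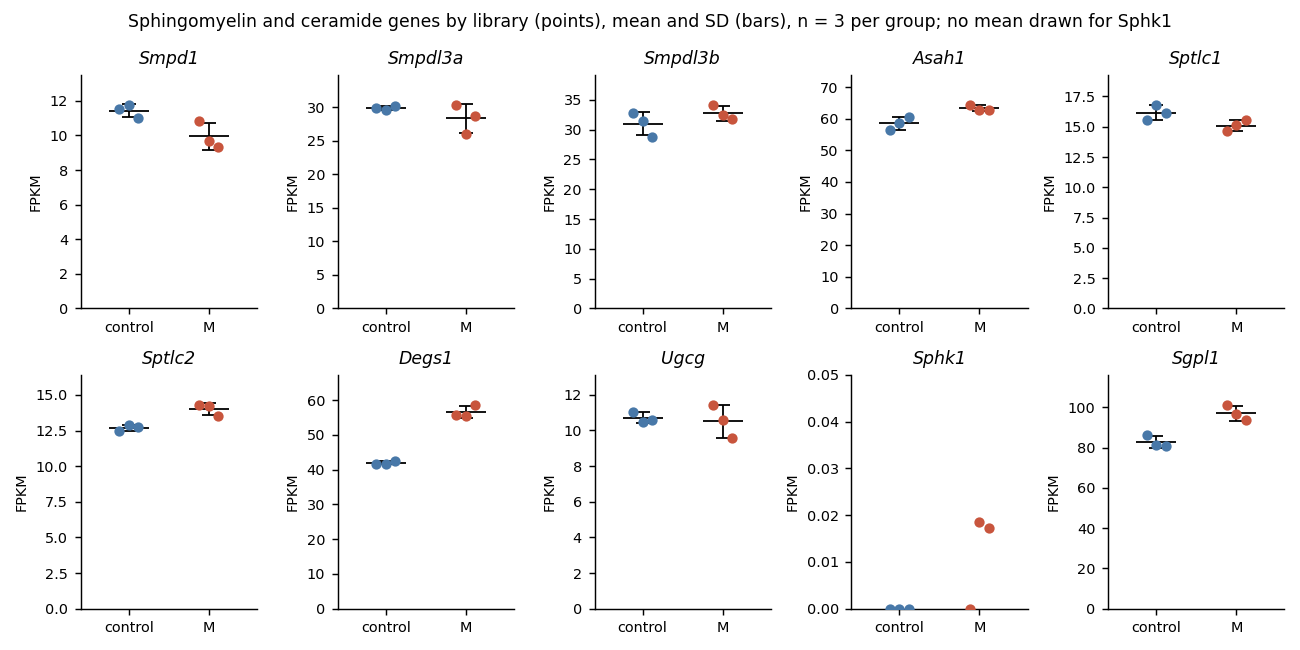
FPKM of the 10 genes in each library, with replicates 1 to 3 from left to right in each group, and the mean and SD of 3 libraries as bars; each panel has its own scale from 0, and Sphk1, listed at 0 in 4 of 6 libraries, has no mean. M lies above control in all libraries for Degs1, Sgpl1, Sptlc2 and Asah1, below it for Smpd1 and Sptlc1, and overlaps it for Smpdl3a, Smpdl3b and Ugcg.

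FPKM are per length, so genes can be ranked, but only as far as each estimate holds. The abundant glycolytic gene Gapdh was listed at 33.4 FPKM in control 2 and at 7.60 to 11.2 FPKM in the other libraries. With that limit, the order of levels of the 10 genes was nearly the same in both groups. Sgpl1 was the most abundant, followed by Asah1, Degs1, Smpdl3b, Smpdl3a, Sptlc1 and Sptlc2. Smpd1 and Ugcg came next, in that order in control and the reverse in M, with overlapping ranges in both groups. Smpdl3a and Smpdl3b overlapped in control only; every other pair of neighbours was separate in both groups. Sgpl1 exceeded 94.0% of the tested genes in mean level, and Ugcg 37.5% of them. The sum of the 10 genes was 293 to 297 FPKM in control and 323 to 337 FPKM in M.

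The promoters of the called genes are shown as the sequence context of the changes. RefSeq promoter windows (build GRCm38.p6) were found for 8 of the 10 genes. The 250 bases before the annotated start are printed for the 3 higher genes with an entry and for the lower gene, 5′ to 3′ on the gene's strand, and capitals mark a motif match.
Degs1 (chr1:182282196-182282445, minus strand): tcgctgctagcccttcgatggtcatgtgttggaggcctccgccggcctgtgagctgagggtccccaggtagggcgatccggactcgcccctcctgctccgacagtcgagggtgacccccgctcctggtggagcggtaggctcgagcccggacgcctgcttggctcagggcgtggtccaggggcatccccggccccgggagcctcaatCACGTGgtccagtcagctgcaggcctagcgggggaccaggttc
Sgpl1 (chr10:61147685-61147934, minus strand): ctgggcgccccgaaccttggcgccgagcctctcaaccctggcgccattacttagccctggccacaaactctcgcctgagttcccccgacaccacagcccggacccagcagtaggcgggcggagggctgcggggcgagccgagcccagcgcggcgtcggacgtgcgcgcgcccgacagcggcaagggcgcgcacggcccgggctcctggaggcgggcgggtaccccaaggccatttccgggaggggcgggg
Sptlc2 (chr12:87388356-87388605, minus strand): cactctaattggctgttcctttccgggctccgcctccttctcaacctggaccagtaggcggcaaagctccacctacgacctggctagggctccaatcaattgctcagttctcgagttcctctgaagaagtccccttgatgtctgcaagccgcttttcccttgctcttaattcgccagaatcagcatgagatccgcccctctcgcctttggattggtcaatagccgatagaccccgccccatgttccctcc
Smpd1 (chr7:105554110-105554359, plus strand): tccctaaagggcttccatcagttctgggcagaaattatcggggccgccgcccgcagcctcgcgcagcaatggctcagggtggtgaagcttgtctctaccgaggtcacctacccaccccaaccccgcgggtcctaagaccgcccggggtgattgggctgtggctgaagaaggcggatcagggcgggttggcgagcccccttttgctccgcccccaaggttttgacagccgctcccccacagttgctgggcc
Exact matches on both strands were sought for TGACNNNGC (the core of the antioxidant response element that NRF2 binds), CACGTG (the E-box), GTCACGTG (a longer form bound by the lysosomal regulator TFEB, which contains the E-box) and the sterol regulatory element, with 1 of its bases left free. In these 4 windows the only match was an E-box in Degs1, from base -43 to -38 before the start. E-boxes were present in 6.02% of 32851 windows of the same length. Of the other matched genes, Ugcg held the antioxidant core from -164 to -156, a motif present in 10.2% of windows. Sphk1 held the antioxidant core in some of its alternative windows and an E-box in others. The longer form and the sterol element, present in 1.85% and 0.192% of windows, matched none of the genes. A match is a run of letters and no evidence of binding.

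The 3 genes of the de novo route to ceramide did not move alike. Sptlc1 and Sptlc2 encode the large subunits of serine palmitoyltransferase, the first and committed enzyme, and Degs1 encodes the desaturase that turns dihydroceramide into ceramide. Degs1 (ENSMUSG00000038633) stood at 41.8, 41.8 and 42.4 FPKM in control 1 to 3 and at 55.6, 55.5 and 58.5 FPKM in M 1 to 3. All M libraries were well above all control libraries, and the means were 42.0 ± 0.389 and 56.5 ± 1.70 FPKM (SD, n = 3). The increase of 34.7% in the mean was the largest of the 9 tested genes (log2 fold change 0.42 ± 0.0369 SE, adjusted p = 8.12e-05), and 83.5% of all tested genes had a smaller absolute change. It was called in every one of 14 alternative settings, with log2 fold changes of 0.38 to 0.45.

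Both tested transcripts of Degs1 lay higher in M without overlap. The main one (ENSMUST00000035295), with 88.7% to 94.6% of the gene's FPKM, rose in a fit on the 16851 transcripts averaging at least 1 FPKM (log2 fold change 0.38, adjusted p = 8.81e-04). It was the only call among 13 tested transcripts of these genes, where 9.18% of all tested transcripts were called higher and 9.56% lower, 18.7% in either direction. The minor transcript ENSMUST00000133052 was at 2.25, 3.31 and 3.84 FPKM in control and 5.11, 4.76 and 6.64 FPKM in M (log2 fold change 0.66 ± 0.194 SE, adjusted p = 0.0749).

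Sptlc2 (ENSMUSG00000021036), the catalytic subunit, was at 12.4, 12.9 and 12.7 FPKM in control and at 14.3, 14.2 and 13.5 FPKM in M. The groups were separate, with means of 12.7 ± 0.225 and 14.0 ± 0.419 FPKM (mean ± SD, n = 3; log2 fold change 0.13 ± 0.0447 SE, adjusted p = 0.0474). Sptlc1 (ENSMUSG00000021468), its partner subunit, was at 15.5, 16.8 and 16.1 FPKM in control and at 14.7, 15.1 and 15.5 FPKM in M. Its M libraries lay just below the lowest control library, and it was not called (log2 fold change -0.09, 95% interval -0.20 to 0.02, adjusted p = 0.156). The ratio of Sptlc2 to Sptlc1 within a library, which no scaling between libraries can change, was 0.801, 0.768 and 0.790 in control and 0.974, 0.940 and 0.870 in M. It was described and not tested. The Sptlc2 call was lost without any single library (adjusted p = 0.128, 0.0721 and 0.0957 without control 1, 2 and 3, and 0.110, 0.128 and 0.0515 without M 1, 2 and 3) and with median-of-ratios scaling (0.0509).

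The other genes of the ceramide synthesis route are read against the 43.1% of all tested genes called in either direction. Of 4 tested genes for the subunits and regulators of serine palmitoyltransferase, 1 was lower and 0 higher. Sptssa, the small subunit that raises the activity of the enzyme, fell from 87.5 ± 3.50 to 59.2 ± 3.58 FPKM (mean ± SD, n = 3; log2 fold change -0.56 ± 0.0526 SE, adjusted p = 1.18e-04). The 3 tested Ormdl genes, which encode inhibitors of the enzyme, had log2 fold changes of 0.03 to 0.09 and were not called. Sptlc3 and Sptssb, alternative subunits, were listed at 0 in every library. Of 5 tested genes for later steps, 1 was higher and 0 lower: Cers2, the ceramide synthase for very long acyl chains, rose from 100.2 ± 0.876 to 123 ± 2.73 FPKM (0.29 ± 0.0350, 4.18e-04).

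Smpd1 encodes acid sphingomyelinase, the lysosomal and secreted enzyme that splits sphingomyelin to ceramide. It (ENSMUSG00000037049) was at 11.5, 11.8 and 11.0 FPKM in control and at 10.8, 9.71 and 9.33 FPKM in M. The groups were separate but close, since M 1 lay just below control 3. The means were 11.4 ± 0.380 and 9.96 ± 0.787 FPKM (mean ± SD, n = 3; log2 fold change -0.18 ± 0.0633 SE, adjusted p = 0.0478), a fall of the mean with a 95% interval of -0.33 to -0.04 on the log2 scale. Leaving out control 1 (adjusted p = 0.113), control 2 (0.120), control 3 (0.0632), M 2 (0.125) or M 3 (0.142) ended the call, and leaving out M 1 kept it (0.0147). It was also lost when libraries were scaled to the same total (0.0853) and with quantile normalization (0.0650). With no filter (0.0700) and with the most abundant transcript alone (0.0772) it was lost too. Smpd1 has 1 transcript, so in those last settings its log2 fold change stayed at -0.18 and only the other genes in the fit differed.

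Smpdl3a and Smpdl3b encode relatives of acid sphingomyelinase with a shared phosphodiesterase fold. The human SMPDL3A protein is secreted by macrophages and cleaves nucleotides, and mouse Smpdl3b is a lipid-anchored surface protein that dampens Toll-like receptor signalling in macrophages. Smpdl3a (ENSMUSG00000019872) was at 29.9, 29.6 and 30.3 FPKM in control and at 30.4, 26 and 28.8 FPKM in M. The groups overlapped through M 1, and the log2 fold change was -0.08 (95% interval -0.21 to 0.06, adjusted p = 0.316). That overlap came from a second transcript, ENSMUST00000151623, listed at 0 in all control libraries and in M 2 and at 2.26 and 1.61 FPKM in M 1 and M 3. The main transcript alone was at 29.9, 29.6 and 30.3 FPKM in control and at 28.1, 26 and 27.2 FPKM in M, without overlap. When each gene was represented by its most abundant transcript, Smpdl3a was called lower (log2 fold change -0.14, adjusted p = 0.0361), while the fit on all transcripts did not call it (adjusted p = 0.0565). Without M 2 the log2 fold change of the summed gene was -0.02.

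Smpdl3b (ENSMUSG00000028885) was at 32.8, 31.5 and 28.8 FPKM in control and at 34.1, 32.4 and 31.7 FPKM in M. The ranges overlapped, and it was not called (log2 fold change 0.08, 95% interval -0.05 to 0.21, adjusted p = 0.296). Without control 3, the lowest library, the log2 fold change was 0.03. Within a library the ratio of Smpdl3a to Smpd1 was 2.59, 2.52 and 2.75 in control and 2.80, 2.68 and 3.09 in M, with overlap.

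Of 3 other tested sphingomyelinases, 1 was higher and 1 lower, beside 21.2% and 21.9% of all tested genes. Smpd4, a neutral sphingomyelinase of the endoplasmic reticulum and nuclear envelope, fell from 11.4 ± 0.366 to 8.41 ± 0.165 FPKM (mean ± SD, n = 3; log2 fold change -0.40 ± 0.0485 SE, adjusted p = 4.28e-04). Smpd5, a mitochondria-associated form, rose from the low level of 0.723 ± 0.112 to 1.69 ± 0.258 FPKM (0.64 ± 0.104, 0.00186). The Smpd5 value was 1.12 with a pseudocount of 0.1 and 0.22 with one of 5. For Smpd4 the call was lost with the most abundant transcript alone (log2 fold change -0.21, adjusted p = 0.480).

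Of 5 tested genes for sphingomyelin synthesis, ceramide transfer and ceramide phosphorylation, 2 were higher and 1 lower. Of all tested genes, 21.2% were higher and 21.9% lower. Sgms1, the Golgi sphingomyelin synthase, rose from 20.8 ± 0.945 to 31.4 ± 0.865 FPKM (mean ± SD, n = 3; log2 fold change 0.57 ± 0.0468 SE, adjusted p = 5.80e-05). Samd8, a related enzyme that makes ceramide phosphoethanolamine, rose from 20.4 ± 0.298 to 29.6 ± 0.850 FPKM (0.51 ± 0.0399, 4.60e-05). Cerk, the ceramide kinase, fell from 49.2 ± 2.97 to 38.8 ± 3.01 FPKM (-0.34 ± 0.0668, 0.00501). Col4a3bp and Cptp, which encode carriers of ceramide and of ceramide 1-phosphate, were not called (log2 fold changes 0.04 and 0.15, adjusted p = 0.475 and 0.147). Sgms2, the plasma membrane synthase, was listed at 0 in every library.

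**Figure D2:**
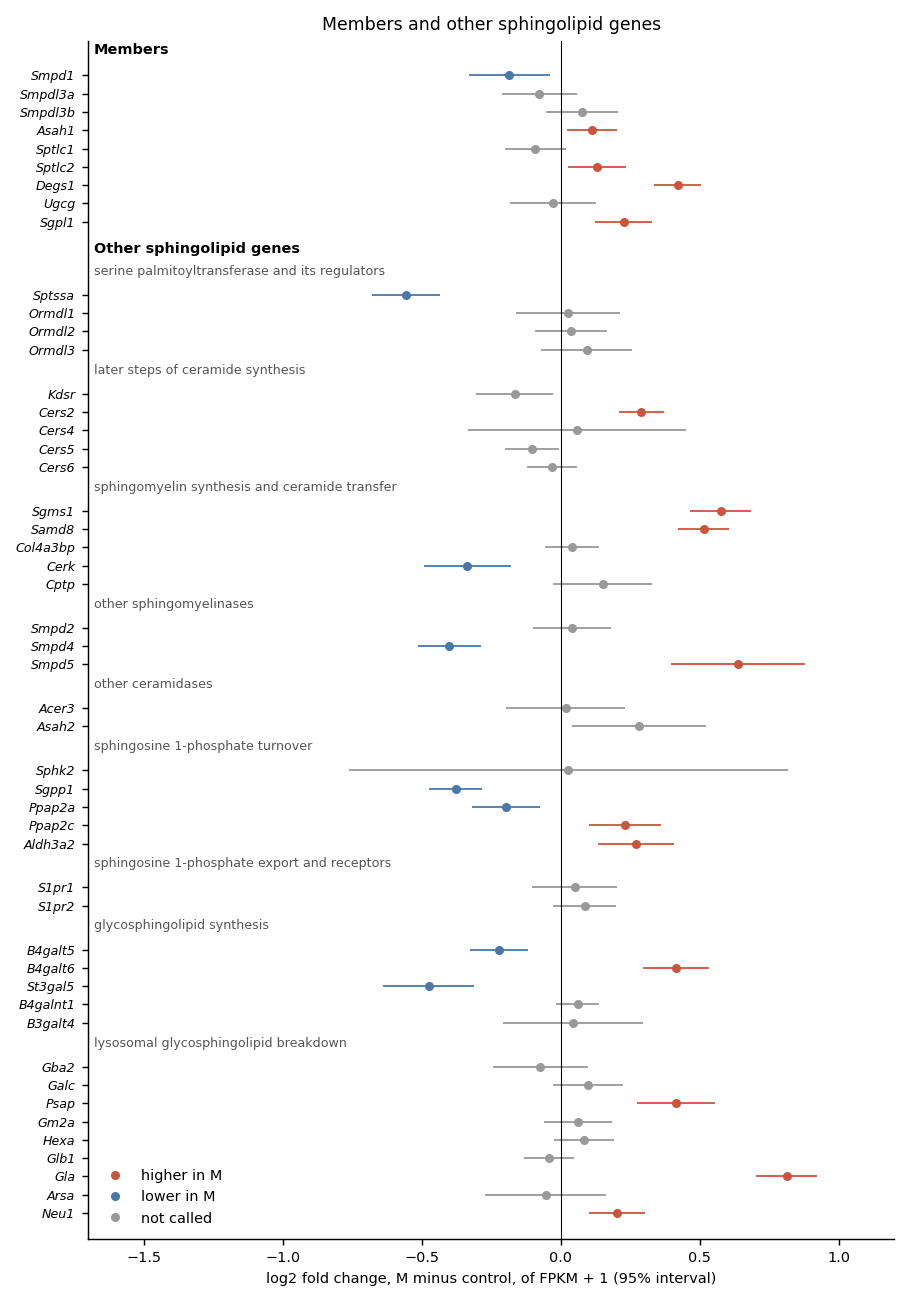
Log2 fold change of M minus control, on the log2(FPKM + 1) scale, with its 95% interval from limma, for the 9 tested genes described here and 40 of the other tested sphingolipid genes grouped by role. Degs1 (0.42) is farthest from 0 among the 9, while among the others drawn Gla (0.81) is farthest above 0 and Sptssa (-0.56) farthest below.

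Ugcg encodes glucosylceramide synthase, the entry point to glycosphingolipids. It (ENSMUSG00000028381) was at 11.1, 10.5 and 10.6 FPKM in control and at 11.4, 10.6 and 9.57 FPKM in M. The M libraries spanned the control range on both sides, and no difference was called (log2 fold change -0.03, 95% interval -0.18 to 0.13, adjusted p = 0.774). The sign turned without M 3 (0.03) and when libraries were scaled to the same total (0.0011). The ratio of Ugcg to Degs1 within a library was 0.265, 0.251 and 0.25 in control and 0.205, 0.191 and 0.164 in M, without overlap.

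Of 5 tested genes for glycosphingolipid synthesis beyond Ugcg, 1 was higher and 2 were lower, beside 21.2% and 21.9% of all tested genes. B4galt5 and B4galt6 encode the lactosylceramide synthases that act next. B4galt6 rose from 11.6 ± 0.578 to 15.8 ± 0.430 FPKM (mean ± SD, n = 3; log2 fold change 0.41 ± 0.0511 SE, adjusted p = 4.60e-04), and B4galt5 fell from 33.0 ± 1.39 to 28.2 ± 0.770 FPKM (-0.22 ± 0.0450, 0.00545). St3gal5, the synthase of the ganglioside GM3, fell from 29.6 ± 1.1 to 21.1 ± 2.13 FPKM (-0.47 ± 0.0706, 0.00121). With the most abundant transcript alone the St3gal5 call was lost (log2 fold change -0.25, adjusted p = 0.679).

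Asah1 encodes acid ceramidase, which splits ceramide to sphingosine in the lysosome. It (ENSMUSG00000031591) was at 56.3, 58.7 and 60.5 FPKM in control and at 64.3, 62.8 and 62.8 FPKM in M. All M libraries were above control, by little, and the means were 58.5 ± 2.08 and 63.3 ± 0.860 FPKM (mean ± SD, n = 3; log2 fold change 0.11 ± 0.0387 SE, adjusted p = 0.0472). Leaving out control 3 kept the call (adjusted p = 0.0414), and it was lost without control 1 (0.143), control 2 (0.0809), M 1 (0.107), M 2 (0.101) or M 3 (0.0888). With quantile normalization the log2 fold change was 0.06 (adjusted p = 0.260). The call was also lost with median-of-ratios scaling (0.0514), no filter (0.0563) and the most abundant transcript alone (0.0597), where the log2 fold change stayed at 0.11 to 0.12. The other tested ceramidases, Acer3 (0.02, adjusted p = 0.895) and Asah2 (0.28, 0.0601), were not called.

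The lysosomal breakdown of glycosphingolipids also feeds ceramide to acid ceramidase. Of 11 tested genes for glycosphingolipid breakdown, 4 were higher and 1 lower, beside 21.2% and 21.9% of all tested genes. The 11 include Gba2, which does not encode a lysosomal enzyme and was not called. Gla, alpha-galactosidase A, rose from 14.2 ± 0.609 to 25.8 ± 0.788 FPKM (mean ± SD, n = 3; log2 fold change 0.81 ± 0.0473 SE, adjusted p = 1.22e-05). Psap, the precursor of the saposins that present lipids to lysosomal enzymes, rose from 420 ± 23.1 to 560.2 ± 32.4 FPKM (0.41 ± 0.0610, 0.00115). The sialidase Neu1, named after its values were seen, also rose (0.20 ± 0.0435, 0.00691).

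Sgpl1 encodes sphingosine 1-phosphate lyase, whose cleavage is the only exit from the sphingolipid pathway. It (ENSMUSG00000020097) was at 86.1, 81.3 and 80.7 FPKM in control and at 100.9, 96.5 and 93.6 FPKM in M. Every M library was above every control library, and the means were 82.7 ± 2.97 and 97.0 ± 3.70 FPKM (mean ± SD, n = 3; log2 fold change 0.23 ± 0.0440 SE, adjusted p = 0.00438). The call held without any 1 of the 6 libraries (adjusted p = 0.00652 to 0.0180).

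Beneath the summed value, 2 transcripts of Sgpl1 exchanged places between libraries. ENSMUST00000092498 held 81.9% and 85.1% of the gene's FPKM in control 2 and 3 and 80.6% and 80.9% in M 1 and M 2, but 10.2% in control 1 and 15.5% in M 3. ENSMUST00000122259 did the opposite, with 85.1% in control 1 and 81.0% in M 3 and 10.4% to 13.5% in the other libraries. The exchange cut across the groups, and the sum of the pair stayed at 77.0 to 82.1 FPKM in control and 89.9 to 94.6 FPKM in M. Neither transcript was called (adjusted p = 0.847 and 0.907), and with the more abundant one alone the gene's call was lost (log2 fold change 0.38, adjusted p = 0.815). A transcript share that moved by over 50 percentage points within both groups was found in 181 of 6470 tested genes with several transcripts (2.80%), a count made after seeing Sgpl1.

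**Figure D3:**
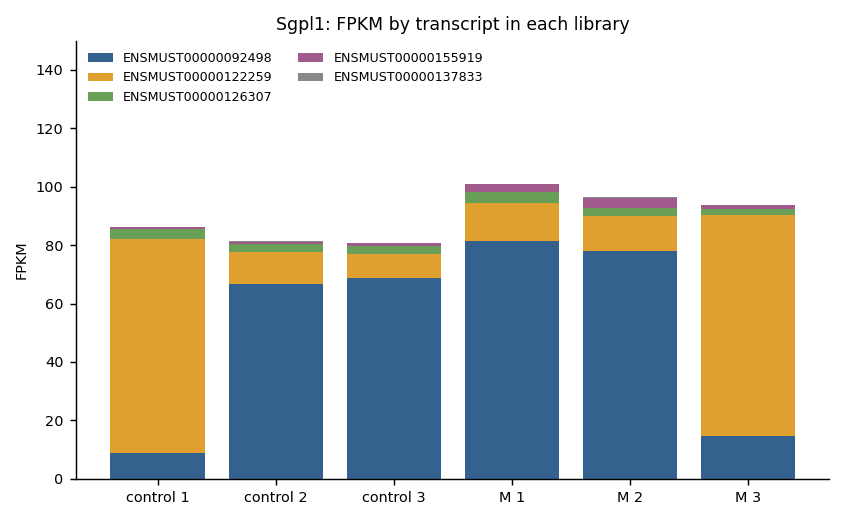
FPKM of Sgpl1 in each library, stacked by transcript from 0. The total rises from 80.7 to 86.1 FPKM in control to 93.6 to 100.9 FPKM in M, while control 1 and M 3 show the orange transcript in place of the blue one.

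Sphk1 encodes sphingosine kinase 1, which makes sphingosine 1-phosphate in the cytosol. It (ENSMUSG00000061878) was listed at 0 in all control libraries and M 1, and at 0.0185 and 0.0172 FPKM in M 2 and M 3. Of its 12 transcripts 11 were listed at 0 throughout, and it was below the limit for testing. A value of 0 may stand for absent RNA or for a failed estimate, and which of them holds was not tested. The other kinase, Sphk2, was at 23.6, 15.1 and 21.7 FPKM in control and at 16.7, 16.1 and 30.5 FPKM in M. Its spread was large in both groups, and no difference was detectable (log2 fold change 0.03, 95% interval -0.76 to 0.82, adjusted p = 0.952).

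Of 5 tested genes for the turnover of sphingosine 1-phosphate other than Sphk1 and Sgpl1, 2 were higher and 2 lower. Of all tested genes, 21.2% were higher and 21.9% lower. Sgpp1, the phosphatase that returns it to sphingosine, fell from 25.2 ± 0.464 to 19.2 ± 0.508 FPKM (mean ± SD, n = 3; log2 fold change -0.38 ± 0.0405 SE, adjusted p = 2.28e-04). Aldh3a2, the dehydrogenase that oxidises the fatty aldehyde released by the lyase, rose from 20.1 ± 1.59 to 24.4 ± 0.606 FPKM (0.27 ± 0.0591, 0.00776). Of the lipid phosphate phosphatases, Ppap2c rose (0.23 ± 0.0553, 0.0115) and Ppap2a, named after its values were seen, fell (-0.20 ± 0.0525, 0.0184). Of the receptors, S1pr2 was the most abundant and was not called (27.9 ± 1.19 to 29.7 ± 1.19 FPKM, adjusted p = 0.186), nor was S1pr1 (0.05, 0.568). The exporters Spns2 and Mfsd2b were below 1 FPKM.

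Across the wider pathway, 63 other sphingolipid genes were in the table and 42 were tested, of which 11 were higher and 8 lower. These shares can be read against the 21.2% and 21.9% of all tested genes. Their median log2 fold change was 0.05 and the median absolute change 0.16, equal at this rounding to that of all tested genes. Of the 21 untested genes, 7 were listed at 0 throughout. The counts were 10 to 13 higher and 7 to 9 lower over all alternatives.

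**Figure D4:**
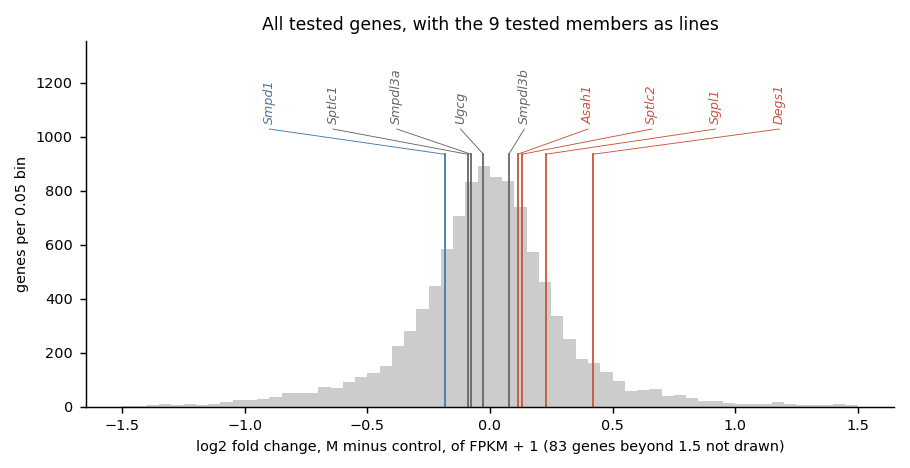
Histogram of the log2 fold change (M minus control, log2(FPKM + 1)) of all 10390 tested genes in bins of 0.05, with lines for the 9 tested genes of sphingomyelin and ceramide metabolism (red higher, blue lower, grey not called). All but Degs1, at 0.42, and Sgpl1, at 0.23, lie within 0.2 of 0.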

How the data were processed

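The authors deposited FPKM per transcript for mRNA and lncRNA; per the submitters' processing notes the genome build was mm9, and the sources used here name no aligner, quantifier or annotation release. Per the labels' protocols, libraries were made from total RNA with a TruSeq kit. The lncRNA table was searched for names formed from a sphingolipid gene (0 of 1513) and otherwise not used.

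FPKM were summed per gene symbol, those with a 6-library average of at least 1 FPKM were tested, and limma 3.58.1 (R 4.3.3) was applied to log2(FPKM + 1), with a trended, robust empirical Bayes step, 1 group term and two-sided p-values adjusted by Benjamini-Hochberg over all genes. The pseudocount understates changes of low genes. Transcripts were fitted likewise. The procedure was tested on simulated data with independent noise and 200 changed genes. That setting differs from these data, where 43.1% of tested genes were called, so it does not check the calls made here. FPKM hold no read counts, so depth in reads is unknown. Steps among low values put relative depth at 0.878 to 1.03 of control 1. Only 10 to 22 of 282 to 322 compared transcripts per library gave these ratios, so they are rough. No intervals for counting error were derived.

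Named were all 10 genes and, for each role in the wider pathway, up to 3 called genes with the largest absolute change, or the most abundant where none was called. The 10 genes and the lists were chosen with earlier results of these data known. Some genes that the rule names are counted but not reported here.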

Additional observations from a re-analysis of the deposited data

How the results depend on the processing

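Among the 10 genes, 4 were called higher and 1 lower. The count of higher genes was 2 with median-of-ratios scaling, 2 with the most abundant transcript alone and 2 with a replicate block. It was 3 with no filter, 3 with quantile normalization and 2 at an adjusted p under 0.01. When 1 library was left out it was 2 to 3. The count of lower genes was 0 with no filter, with scaling to the same total, with quantile normalization, with a replicate block and at an adjusted p under 0.01, and 0 to 1 when 1 library was left out. With the most abundant transcript alone the count of lower genes stayed at 1, with Smpdl3a called and Smpd1 not. Degs1 was called in all 14 alternatives and Sgpl1 in 13. Over all genes, 2206 were higher and 2274 lower in the main fit. These counts were 2200 and 2286 with median-of-ratios scaling, and 1723 and 1745 with the most abundant transcript alone. With no filter they were 2271 and 2260, with scaling to the same total 2516 and 1977, and with quantile normalization 2281 and 2244. Without 1 library they ran from 1816 to 2065 and from 1870 to 2220. At an adjusted p under 0.01, which was chosen after seeing the data, 1433 were higher and 1474 lower. Ugcg, which was not called, turned sign when scaled to the same total (0.0011) and, with 1 library left out, ran from -0.0816 to 0.0337. Acer3, also not called, turned with the most abundant transcript alone (-0.24, adjusted p = 0.0334) and ran from -0.0919 to 0.0890 with 1 library left out.

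Labels give both groups replicate numbers 1 to 3 without saying that they pair libraries. Deviations from the group means correlated at 0.0664, 0.00520 and -0.0347 across genes for numbers 1, 2 and 3, and not every library correlated best with its own number. With the replicate block, 2104 genes were higher and 2196 lower, and of transcripts 788 were higher and 792 lower, against 1547 and 1611 without it. Asah1, Sptlc2 and Smpd1 were then not called (adjusted p = 0.0816, 0.0839 and 0.0504). Of 16 called pathway genes named by the rule, 14 kept their call in all alternatives, all but Smpd4 and St3gal5. Depth in reads is unknown, so the floor for Sphk1 could not be set.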
